A study of Rattus norvegicus with 15 samples.

Results

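The 10 genes of the growth hormone and IGF axis described here were followed through 15 rat livers: Ghr, Stat5b, Socs2, Cish, Igf1, Igfals, Igfbp3, Igfbp1, Igfbp2 and Igfbp4. They were found as every probe set whose platform gene symbol, current or former, was one of these names, which gave 15 probe sets for 10 genes among 31042 probe sets that are not controls. All 10 genes were among the 9540 genes tested. The livers came from male Sprague Dawley rats, 7 weeks of age when the study began. They were kept on a high-fat diet (59% of calories as fat) and gavaged once a day over 6 weeks. The groups, with 5 samples each, received vehicle (0.5% methylcellulose), PF-04923503 at 10 mg/kg or PF-04923503 at 30 mg/kg. PF-04923503 is named in the study's title as an inhibitor of ACC, the acetyl-CoA carboxylase that starts fatty acid synthesis. There was no group on ordinary chow, and the labels used here give neither the hour of collection nor the feeding state. Nor do they state that each sample is a separate rat, and the spread behind each p-value is that between samples, which may in part be technical.

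Growth hormone from the pituitary binds its receptor on hepatocytes and activates the kinase JAK2, which phosphorylates the transcription factor STAT5B. STAT5B switches on Igf1 and Igfals, and also Socs2 and Cish, whose products dampen the receptor in return. Male rats secrete growth hormone in pulses, and the feedback genes follow the pulses closely. The liver supplies most circulating IGF-1, which travels in a complex with IGFBP3 and the acid labile subunit. IGFBP1 is regulated separately, being held down by insulin.

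Expression is given as the deposited log2 value, normalised between arrays, and each gene is represented by its brightest probe set unless another is named. Values of different probe sets are not comparable as levels, so each gene is compared with itself. The array showed liver: Alb, Ttr and Apoa1, which encode abundant hepatocyte proteins, had 0%, 0.0354% and 0.106% of probe sets above them. Pairwise correlations of the arrays lay between 0.989 and 0.996. The mean level of 9 hepatocyte markers ranged from 14.11 to 14.16 in vehicle, from 14.08 to 14.15 at 10 mg/kg and from 14.10 to 14.15 at 30 mg/kg. Most of them lie near the highest value on any array, 15.38, so their mean had little room to vary. Of the dimmer ones, Hnf4a overlapped between groups. Asgr1 was 11.41 to 11.56 at 10 mg/kg, below all vehicle samples at 11.59 to 11.86 (limma adjusted p = 0.196). At that dose 2.44% of all genes separated from vehicle. Among the 10 genes, vehicle sample 1 stood apart in Stat5b, Cish, Igfbp3 and Igfbp1, and values without it are given with those genes. It was also low in some genes of the lists described below, for which values without it are not given.

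The promoter of Cish is shown because Cish had the widest spread of the 10 genes and its product is a feedback inhibitor whose gene STAT5 drives. RefSeq promoter windows of the GRCr8 assembly, reaching from 250 bases before the start site to 50 after it, matched 9 of the 10 genes, all but Socs2. The windows were searched on both strands for the STAT5 motif TTCNNNGAA, which reads the same on both, and for the FOXO motif GTAAACA. Capitals mark matches to the STAT5 motif in the Cish window, chr8:116850719-116851018 on the plus strand.

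Cish: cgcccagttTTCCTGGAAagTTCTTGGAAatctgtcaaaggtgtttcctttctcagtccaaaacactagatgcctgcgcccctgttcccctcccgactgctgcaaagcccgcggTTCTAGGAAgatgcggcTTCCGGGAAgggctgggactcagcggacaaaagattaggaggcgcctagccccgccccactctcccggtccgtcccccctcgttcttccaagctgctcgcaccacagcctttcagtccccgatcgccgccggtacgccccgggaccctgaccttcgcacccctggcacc

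There were 4 matches in this window, TTCCTGGAA, TTCTTGGAA, TTCTAGGAA and TTCCGGGAA, and none overlapped another. Counted from the start site, their first bases lay at -241, -230, -136 and -119. Of 33469 windows of this length, 8.87% held at least 1 match and 2 windows, that of Cish among them, held 4 or more. The windows of the other 8 genes held 0 matches to the STAT5 motif. No window of the 9 held GTAAACA, which was in 3.78% of all windows. Only that exact string was searched, so other forms of a FOXO site were not counted. A match is a string of letters and was not tested for binding.

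No member of the axis was called at either dose. At an adjusted p under 0.05 by limma, 0 of the 10 genes differed at 10 mg/kg against vehicle, where 0.105% of all genes did. Against vehicle at 30 mg/kg and between the doses, 0 of 10 were called and 0% of all genes. The mean of both doses against vehicle gave 0 of 10, with 0.147% of all genes called. By limma with no adjustment at 0.05, 0 of 10 members passed at 10 mg/kg against 13.3% of all genes. Ghr alone passed that looser limit at 30 mg/kg (16.1% of all genes) and in the mean of both doses (17.7%), and Igfbp1 alone passed it between the doses (5.82%). In none of the 10 genes did the groups separate without overlap, which 2.44% of all genes did at 10 mg/kg, 3.21% at 30 mg/kg and 0.943% between the doses. Each of these counts is 0 or 1 of 10, so none stands far from its background.

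**Figure D1:**
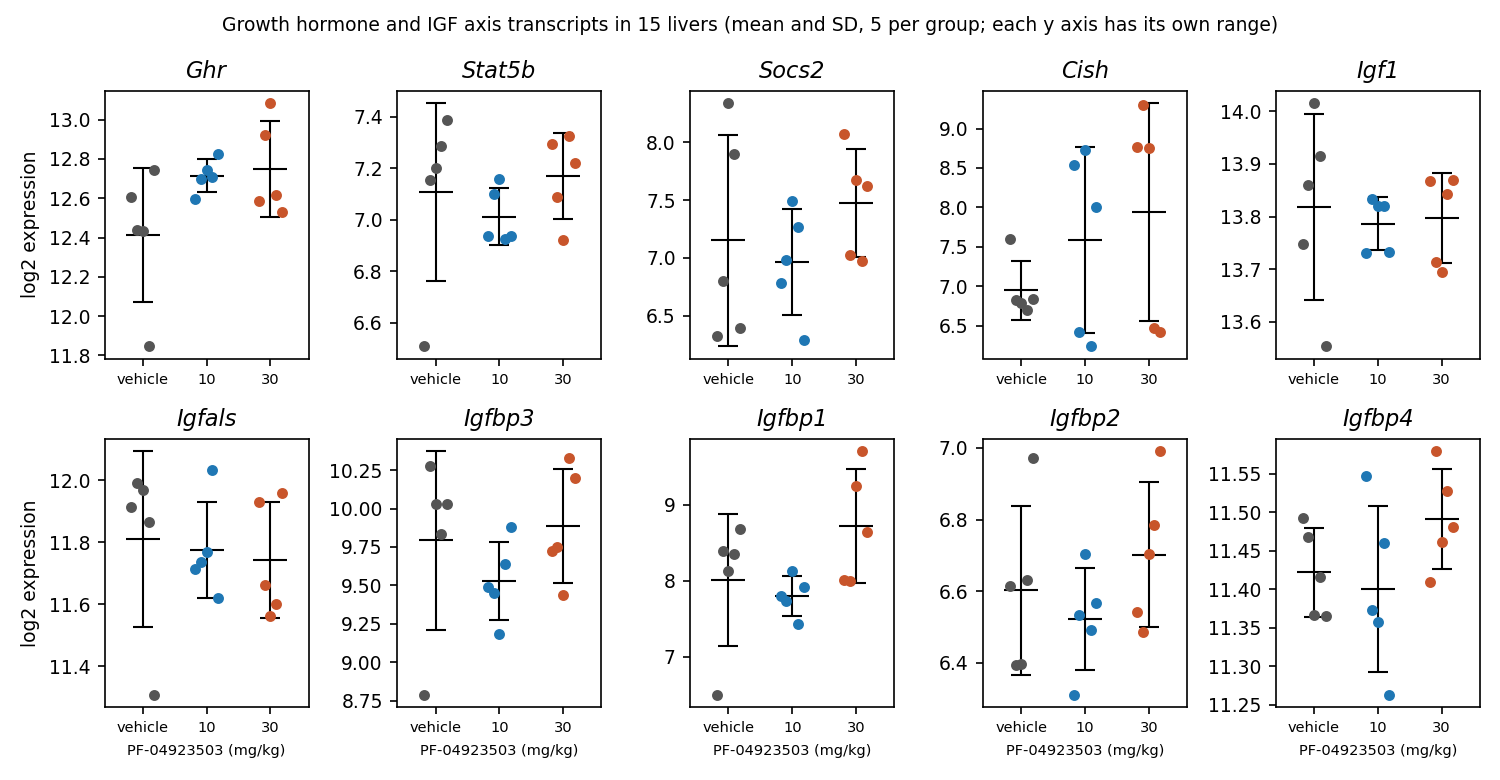
Log2 expression (y axis, with its own range in each panel) of the 10 genes in vehicle, 10 mg/kg and 30 mg/kg samples. Points are single samples, horizontal bars the group mean and whiskers the SD (n = 5). Cish lies in a high and a low cluster in both treated groups, whereas Igf1 differs little between groups.

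Ghr, which encodes the growth hormone receptor, had higher means than vehicle at both doses. Its values were 12.61, 12.44, 12.43, 11.85 and 12.74 in vehicle samples 1 to 5. They were 12.60, 12.70, 12.74, 12.71 and 12.83 at 10 mg/kg, and 12.59, 12.92, 13.09, 12.61 and 12.53 at 30 mg/kg. All 10 treated samples were above vehicle samples 2, 3 and 4, and vehicle sample 4 lay well below all others. The level was 1.23-fold that of vehicle at 10 mg/kg (95% confidence interval 0.997 to 1.52, limma adjusted p = 0.385) and 1.26-fold at 30 mg/kg (1.02 to 1.56, limma adjusted p = 0.271). Without vehicle sample 4 the log2 differences were 0.16 and 0.19 in place of 0.30 and 0.33.

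The dimmer Ghr probe set gave 11.12, 11.14, 10.90, 10.82 and 11.26 in vehicle. It gave 11.42, 11.26, 11.37, 11.40 and 11.65 at 10 mg/kg and 11.53, 11.40, 11.61, 11.31 and 11.15 at 30 mg/kg. At each dose 4 of 5 treated samples were above every vehicle sample. The folds over vehicle were 1.29 (1.12 to 1.50) at 10 mg/kg and 1.27 (1.10 to 1.48) at 30 mg/kg, with an exact two-sided permutation p of 0.0159 for each. In a fit of all 31042 probe sets the limma adjusted p was 0.252 and 0.164, so neither was called. For the mean of both doses this probe set gave 1.28-fold (1.13 to 1.46, limma adjusted p = 0.116). The comparisons with vehicle share its 5 samples. With any 1 sample left out, the log2 difference of this probe set stayed between 0.32 and 0.43 at 10 mg/kg and between 0.29 and 0.41 at 30 mg/kg. Between the doses the folds on the brighter and dimmer probe sets were 1.02 (0.828 to 1.26) and 0.984 (0.850 to 1.14).

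Stat5b, the main STAT5 of the growth hormone signal in liver, averaged 7.11 ± 0.35 in vehicle, 7.01 ± 0.11 at 10 mg/kg and 7.17 ± 0.17 at 30 mg/kg (SD, n = 5 each). The vehicle values were 6.51, 7.15, 7.20, 7.28 and 7.39, so that sample 1 was the lowest of all 15. The levels at the doses were 0.936-fold (0.767 to 1.14) and 1.04-fold (0.856 to 1.27) that of vehicle, with limma adjusted p = 0.795 and 0.857. Without vehicle sample 1 the log2 differences were -0.25 (limma adjusted p = 0.216) and -0.09.

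Cish was the most variable of the 10, and its treated samples split. The same treated samples were high in Foxa2, described below, so the split was not particular to Cish. In vehicle the values were 7.60, 6.82, 6.78, 6.69 and 6.83. At 10 mg/kg samples 1, 3 and 5 had 8.54, 8.73 and 8.01, while samples 2 and 4 had 6.42 and 6.24. At 30 mg/kg samples 1, 2 and 3 had 8.77, 9.30 and 8.75, while samples 4 and 5 had 6.47 and 6.41. So 3 of 5 samples at each dose were above every vehicle sample and the other 2 below every one, and the means hide this. The SD was 0.37 in vehicle, 1.18 at 10 mg/kg and 1.39 at 30 mg/kg. Only 0.304% of all genes had a larger spread within groups than Cish, at 1.07 against a median of 0.119. Mean folds over vehicle were 1.56 (0.633 to 3.84, limma adjusted p = 0.684) and 1.99 (0.809 to 4.91, limma adjusted p = 0.440), with intervals too wide to fix a direction. With 1 sample left out, the log2 difference at 10 mg/kg (0.64 with all) ran from 0.36 without 10 mg/kg sample 3 to 0.98 without 10 mg/kg sample 4. At 30 mg/kg (0.99 with all) it ran from 0.65 without 30 mg/kg sample 2 to 1.38 without 30 mg/kg sample 5. Without vehicle sample 1 the differences were 0.81 and 1.16.

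The other Cish probe set had the same high samples. Its values were 6.67, 5.89, 6.29, 5.46 and 6.22 in vehicle, 8.06, 5.64, 8.43, 5.37 and 7.45 at 10 mg/kg, and 8.02, 7.95, 7.76, 5.92 and 5.88 at 30 mg/kg. It exceeded the filter threshold of 6.10 on 9 of 15 arrays, so its lower values are near the dim end. The 3 samples of each dose that were high on the brighter probe set were above every vehicle sample here too. Of the other 4 treated samples, 1 was below every vehicle sample and 3 were within the vehicle range. Mean folds on it were 1.84 (0.779 to 4.35) and 2.00 (0.845 to 4.72).

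**Figure D2:**
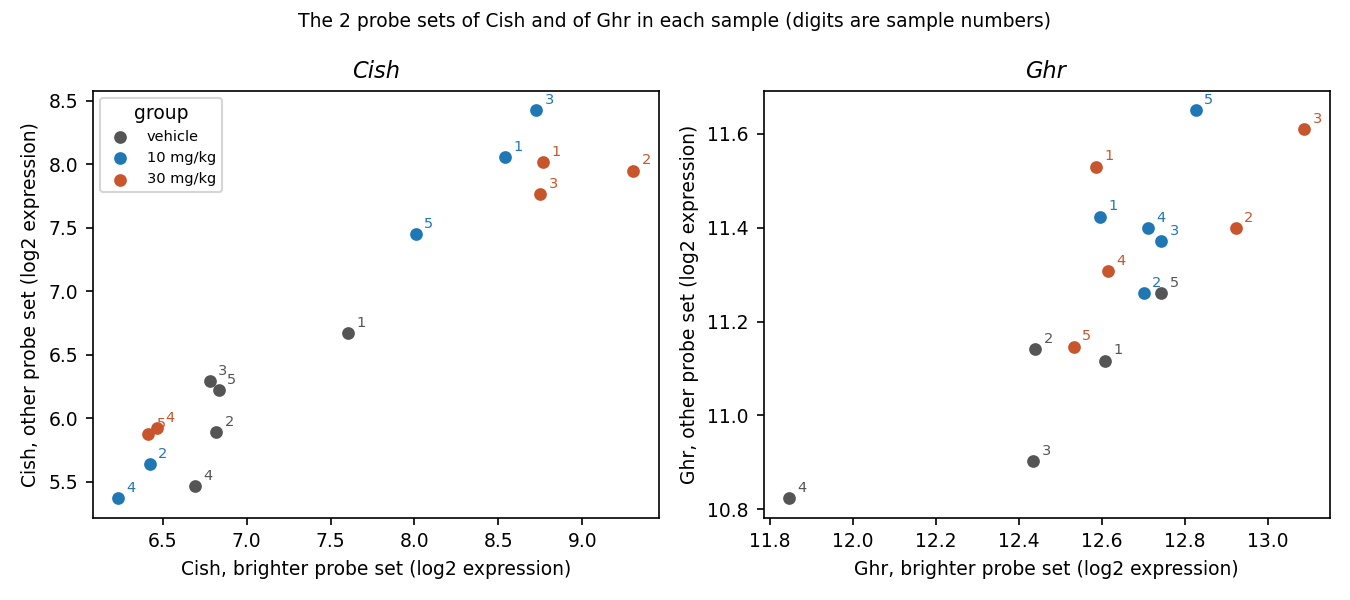
Each point is 1 sample, with its number, placed by the brighter (x axis) and the other (y axis) probe set of Cish (left) and Ghr (right), in log2 expression. For Cish 3 samples of each dose lie above all vehicle samples on both probe sets. For Ghr most treated samples lie toward the upper right, overlapping vehicle.

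Socs2, a feedback inhibitor that tags the receptor for degradation, did not split in the way Cish did. Its values were 6.32, 6.80, 8.34, 7.89 and 6.40 in vehicle, 6.79, 6.98, 7.49, 7.27 and 6.29 at 10 mg/kg, and 8.07, 7.03, 7.67, 6.97 and 7.62 at 30 mg/kg. The widest spread was in vehicle, with an SD of 0.92 against 0.46 at each dose, and the 3 groups overlapped. Folds were 0.879 (0.509 to 1.52) at 10 mg/kg and 1.25 (0.724 to 2.16) at 30 mg/kg, with limma adjusted p = 0.865 and 0.701. Without vehicle sample 3 the log2 differences were 0.11 and 0.62, and without vehicle sample 1 they were -0.39 and 0.12.

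Igf1, the hormone itself, was among the most even of the 10. Vehicle samples had 13.75, 13.86, 14.02, 13.91 and 13.55, the 10 mg/kg samples 13.73, 13.83, 13.82, 13.82 and 13.73, and the 30 mg/kg samples 13.87, 13.71, 13.69, 13.84 and 13.87. All 10 treated values lay inside the vehicle range. The fold over vehicle was 0.978 (0.878 to 1.09) at 10 mg/kg and 0.986 (0.884 to 1.10) at 30 mg/kg, with limma adjusted p = 0.889 and 0.914. Between the doses it was 1.01 (0.904 to 1.12). The sign of so small a difference is not fixed, and at 30 mg/kg the other probe sets gave log2 differences of 0.03 and 0.03 where the brightest gave -0.02.

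Igfals, which encodes the acid labile subunit, had 11.91, 11.99, 11.97, 11.87 and 11.31 in vehicle. At 10 mg/kg it had 11.71, 11.74, 11.77, 12.03 and 11.62, and at 30 mg/kg 11.93, 11.66, 11.56, 11.60 and 11.96. Vehicle sample 5 was the lowest of the 15 and the other vehicle samples sat near the top. Folds were 0.976 (0.809 to 1.18) and 0.955 (0.792 to 1.15), with limma adjusted p = 0.931 and 0.836. Without vehicle sample 5 the log2 differences were -0.16 and -0.19 in place of -0.04 and -0.07, and still not called (the limma adjusted p was 0.453 and 0.310).

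Igfbp3 encodes the main carrier of IGF-1 in blood and in liver is made largely by cells other than hepatocytes. Its values were 8.79, 10.27, 10.03, 9.84 and 10.03 in vehicle, 9.49, 9.45, 9.18, 9.64 and 9.88 at 10 mg/kg, and 9.72, 9.75, 9.44, 10.33 and 10.20 at 30 mg/kg. Vehicle sample 1 was the lowest of all 15, while the other vehicle samples lay above 4 of the 5 samples at 10 mg/kg. Folds were 0.833 (0.582 to 1.19, limma adjusted p = 0.674) at 10 mg/kg and 1.07 (0.746 to 1.53, limma adjusted p = 0.880) at 30 mg/kg. Without vehicle sample 1 the log2 difference at 10 mg/kg was -0.51 in place of -0.26 (limma adjusted p = 0.201), and that at 30 mg/kg was -0.16 in place of 0.09 (limma adjusted p = 0.675), so its sign turned. On the other probe set the vehicle values were 8.13, 9.19, 9.11, 9.08 and 9.12, and those at 10 mg/kg ran from 8.50 to 8.82. There the difference at 10 mg/kg was -0.29 with all samples, and the groups overlapped (exact two-sided permutation p = 0.246). The difference was -0.49 without vehicle sample 1, which was left out because it stood apart. In that case every sample at 10 mg/kg lay below the remaining vehicle samples. How many of all genes separate with that sample left out was not counted, and 2.44% did with all samples. The difference at 30 mg/kg was -0.03 with all samples and -0.23 without vehicle sample 1.

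Markers of the cells outside the hepatocyte pool had lower means at the same dose. All 9 measured Kupffer cell markers and all 9 measured endothelial markers had lower means at 10 mg/kg than in vehicle, with medians of -0.39 and -0.23 on the log2 scale where the median of all genes was -0.02. All 9 of each had lower means at 30 mg/kg too, with medians of -0.34 and -0.19. No marker was called at either dose. Pecam1, an adhesion molecule of endothelium, had log2 differences of -0.30 and -0.30 (limma adjusted p = 0.159 and 0.156), and Stab1, a scavenger receptor, -0.34 and -0.38 (0.262 and 0.174). Cd163, a macrophage scavenger receptor, had -0.31 and -0.30 (limma adjusted p = 0.310 and 0.247), and Cd5l, a secreted macrophage protein, -0.60 and -0.62 (0.342 and 0.266). The mean level of the Kupffer cell markers ranged from 9.03 to 9.58 in vehicle, from 8.55 to 9.23 at 10 mg/kg and from 8.44 to 9.55 at 30 mg/kg. For the endothelial markers the ranges were 8.39 to 8.57, 8.05 to 8.43 and 8.19 to 8.46. Their part in the Igfbp3 values was not tested. In bulk tissue, fewer cells of a type and less RNA per cell cannot be told apart. Stellate cell and matrix markers had 9 of 9 lower means at 10 mg/kg and 6 of 9 at 30 mg/kg, and blood genes 4 of 4 and 3 of 4, with no call.

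Igfbp1, the binding protein that insulin holds down, differed more between the doses than from vehicle. Vehicle samples had 6.50, 8.40, 8.13, 8.35 and 8.68, with sample 1 again the lowest of all 15. The 10 mg/kg samples had 7.81, 7.73, 8.13, 7.42 and 7.91, and the 30 mg/kg samples 8.01, 8.00, 9.25, 9.71 and 8.64. Samples 3, 4 and 5 at 30 mg/kg exceeded every sample at 10 mg/kg, and samples 3 and 4 also exceeded every vehicle sample. The level at 30 mg/kg was 1.90-fold that at 10 mg/kg (1.07 to 3.36, exact two-sided permutation p = 0.0317). Over all genes this was not a call (limma adjusted p = 0.851). Against vehicle the folds were 0.864 (0.487 to 1.53) at 10 mg/kg and 1.64 (0.924 to 2.91) at 30 mg/kg, with limma adjusted p = 0.854 and 0.377. Without vehicle sample 1 the log2 differences from vehicle were -0.59 and 0.33 in place of -0.21 and 0.71.

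Igfbp2 and Igfbp4, the remaining IGF carriers, had small differences from vehicle. Igfbp2 averaged 6.60 ± 0.24 in vehicle, 6.52 ± 0.14 at 10 mg/kg and 6.70 ± 0.20 at 30 mg/kg (SD, n = 5 each), not far above the filter threshold. Its folds over vehicle were 0.946 (0.797 to 1.12) and 1.07 (0.903 to 1.27), with limma adjusted p = 0.802 and 0.706. Igfbp4, whose product restrains IGF action in tissues, averaged 11.42 ± 0.06, 11.40 ± 0.11 and 11.49 ± 0.07 (SD, n = 5 each). Its folds were 0.985 (0.909 to 1.07) and 1.05 (0.968 to 1.14), with limma adjusted p = 0.900 and 0.548, and 82.8% of all genes varied more within groups.

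Set side by side, the 10 genes had 2 higher and 8 lower means at 10 mg/kg against vehicle, and the median of their log2 differences was -0.06. At 30 mg/kg 8 were higher and 2 lower, with a median of 0.10, where all genes had a median of -0.03. Between the doses 9 of 10 were higher at 30 mg/kg, and the median was 0.17 against -0.01 for all genes. Igfals was the exception. None of these differences was called, and the comparisons share samples, so the counts are a description.

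**Figure D3:**
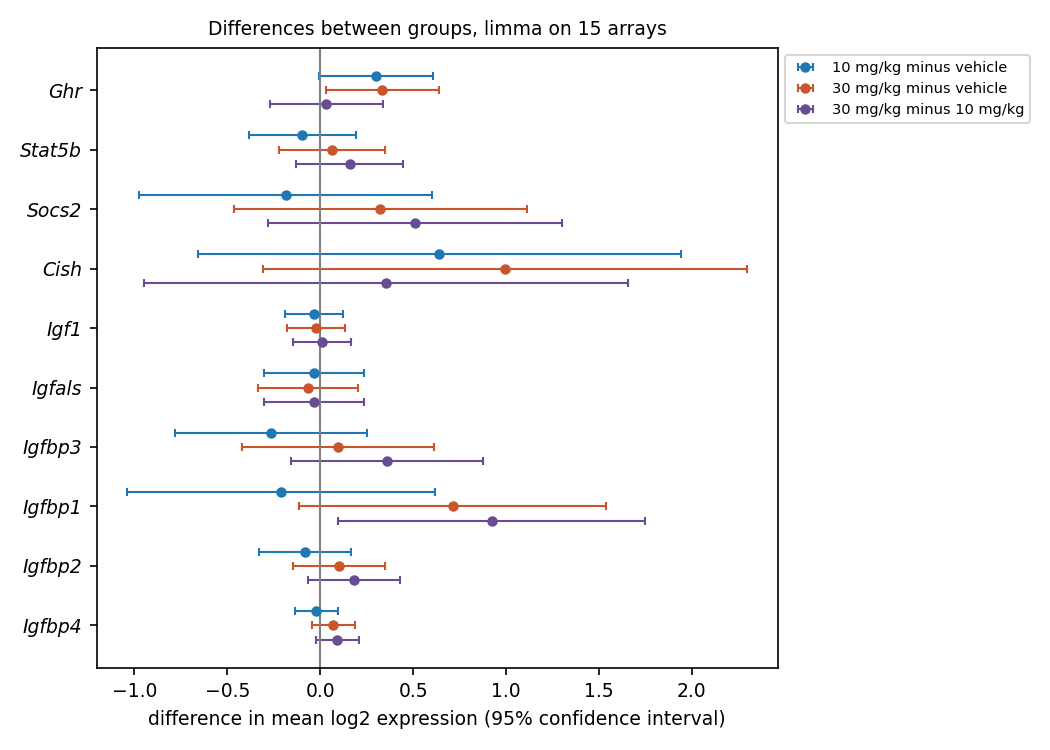
Differences in mean log2 expression (x axis) with 95% confidence intervals for the 10 genes, at 10 mg/kg minus vehicle, 30 mg/kg minus vehicle and 30 mg/kg minus 10 mg/kg. Intervals leave out 0 for Ghr at 30 mg/kg minus vehicle and for Igfbp1 between the doses, before any adjustment. The intervals of Cish are the widest and those of Igfbp4 the narrowest.

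To see which genes varied together apart from dose, values were taken as deviations from their group mean over the 15 arrays. Cish was left out because its samples fell into separate clusters, which left 36 pairs. Igf1 and Igfals had r = 0.77 (permutation p = 0.00533, adjusted p = 0.192) and rho = 0.64 (permutation p = 0.022, adjusted p = 0.339). Without vehicle samples 5 and 3, r was 0.56. Igf1 and Socs2 had r = 0.74 (permutation p = 0.0157, adjusted p = 0.283) and rho = 0.65 (permutation p = 0.0401, adjusted p = 0.339), and r was 0.63 without vehicle samples 3 and 1. Ghr and Igf1 had r = -0.67 (permutation p = 0.054, adjusted p = 0.460) and rho = -0.81 (permutation p = 0.00228, adjusted p = 0.0821), and r was -0.69 without vehicle sample 4 and 30 mg/kg sample 3. Stat5b and Igfbp3 had r = 0.70 (permutation p = 0.0676, adjusted p = 0.460) and rho = 0.34 (permutation p = 0.264, adjusted p = 0.559). That relation rested on 2 samples, since r was 0.03 without vehicle sample 1 and 30 mg/kg sample 3. Stat5b and Igfbp1 had r = 0.66 (permutation p = 0.0767, adjusted p = 0.460) and rho = 0.54 (permutation p = 0.0715, adjusted p = 0.339), and r was 0.58 without those samples. Igfbp3 and Igfbp1 had r = 0.63 (permutation p = 0.0668, adjusted p = 0.460) and rho = 0.43 (permutation p = 0.161, adjusted p = 0.468), and r was 0.52 without them. After adjustment over the 36 pairs, 0 passed 0.05 by r or by rho.

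**Figure D4:**
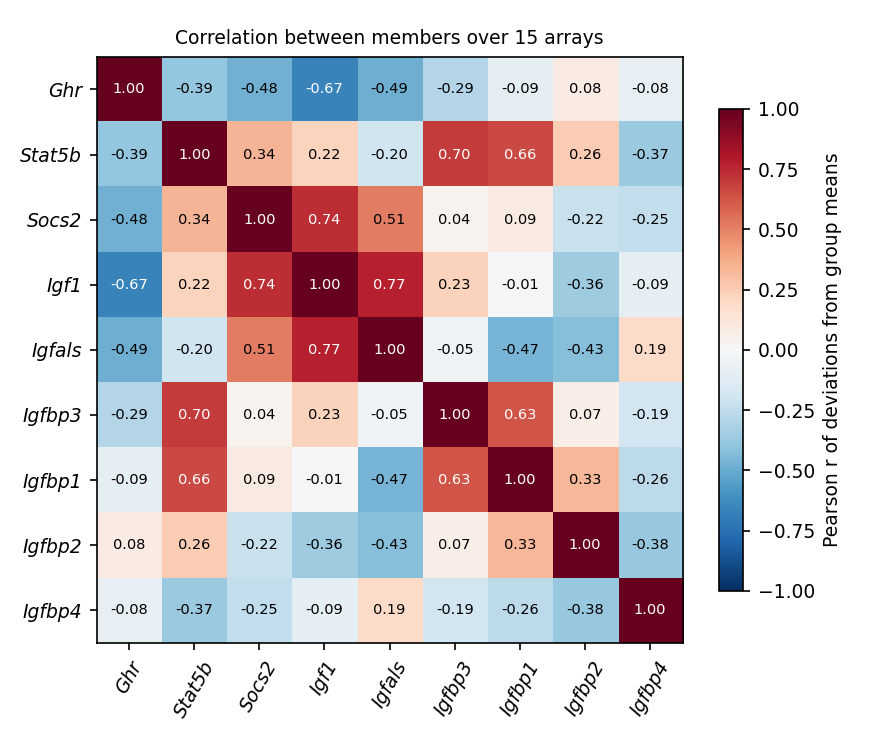
Pearson r (colour and printed value) between deviations from group means over 15 arrays for 9 genes, Cish left out. Igf1, Igfals and Socs2 were positively correlated, from 0.51 to 0.77, as were Stat5b, Igfbp3 and Igfbp1, from 0.63 to 0.70. Ghr is negative against Igf1, Igfals and Socs2.

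Among all tested genes, those most like Igf1 over the 15 arrays by Pearson r were Upf2 (r = 0.91, rho = 0.89), Stmn1 (0.80 and 0.69) and Cyp4f6 (0.78 and 0.72). For Igfbp1 they were Pax8 (0.84 and 0.61), LOC100910319 (0.83 and 0.71) and Stat5a (0.83 and 0.70). For Socs2 they were Srpra (0.86 and 0.89), Lyrm2 (0.84 and 0.84) and Gcat (0.81 and 0.84). Each was picked as the highest over all genes tested, so no p is given. Without the 2 samples farthest from the median, r stayed at 0.77 to 0.89 for Socs2 but was 0.52 to 0.62 for Igfbp1, whose likeness leaned on vehicle sample 1 and 30 mg/kg sample 4. For Igf1 it was 0.62 to 0.78.

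The rest of the pathway was read from lists of its parts. Of 18 measured genes of growth hormone receptor signalling, 0 were called at either dose, and their medians were 0.02 and -0.03. The 3 with the smallest p-values included Ptpn6, a phosphatase that acts on JAK kinases (vehicle 1.17-fold higher than 10 mg/kg and 1.15-fold higher than 30 mg/kg, limma adjusted p = 0.256 and 0.230). Another was Cbl, a ubiquitin ligase (1.12-fold and 1.17-fold higher in vehicle, limma adjusted p = 0.433 and 0.219). Prlr, the prolactin receptor, stood at 2.44-fold the vehicle level at 10 mg/kg and 1.25-fold at 30 mg/kg (limma adjusted p = 0.289 and 0.785).

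Prlr was 9.57, 8.84, 8.38, 7.26 and 7.35 in vehicle, 10.22, 9.89, 9.94, 8.84 and 8.93 at 10 mg/kg, and 8.76, 9.29, 9.39, 7.20 and 8.35 at 30 mg/kg. The groups overlapped. Bcl6, a repressor that competes with STAT5 for its sites, was named after its values were seen. It had 6.24, 9.73, 7.75, 8.35 and 10.98 in vehicle, 9.88, 8.62, 9.93, 9.55 and 9.62 at 10 mg/kg, and 8.72, 9.07, 8.65, 9.03 and 9.12 at 30 mg/kg. Vehicle sample 1 was the lowest of the 15 in Bcl6 as well, and the spread in vehicle was far wider than at either dose. Onecut1, a hepatocyte transcription factor induced by growth hormone, was also named after its values were seen. It had 10.13, 8.91, 11.05, 9.47 and 7.68 in vehicle, and it was 1.60-fold and 1.63-fold the vehicle level at the doses (limma adjusted p = 0.645 and 0.568). Foxa2, of the same list and likewise named after its values were seen, split as Cish did. It had 9.68, 9.48, 9.61, 9.49 and 9.95 in vehicle. At 10 mg/kg samples 1, 3 and 5 had 10.85, 10.70 and 10.56, while samples 2 and 4 had 9.51 and 9.45. At 30 mg/kg samples 1, 2 and 3 had 10.62, 10.81 and 10.77, while samples 4 and 5 had 9.44 and 9.39.

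Of 14 measured genes of the wider IGF system and insulin signalling, 0 were called. Igfbp7, a secreted protein related to the IGF carriers, was 1.26-fold and 1.19-fold higher in vehicle (limma adjusted p = 0.159 and 0.215). Igf2r, the receptor that clears IGF-2, was 1.05-fold and 1.13-fold higher in vehicle (limma adjusted p = 0.609 and 0.163), and Akt2, a kinase of the insulin signal, was at 1.12-fold and 1.06-fold the vehicle level (0.247 and 0.490). Of 8 measured insulin and fasting responsive genes 0 were called. Irs2, an insulin receptor substrate, was nearly level across vehicle, from 7.17 to 7.30. It was 7.51, 6.47, 7.84, 6.60 and 7.51 at 10 mg/kg and 7.94, 7.57, 8.17, 7.77 and 7.46 at 30 mg/kg. Thus all 5 samples at 30 mg/kg exceeded every vehicle sample, while at 10 mg/kg samples 2 and 4 were below them all. Groups without overlap were found in 3.21% of all genes at 30 mg/kg. At 10 mg/kg, where 2.44% of all genes separated, so did Igfbp7, Akt2 and Cyp2c7 (described below), among others. Irs2 at 30 mg/kg was 1.44-fold the vehicle level (limma adjusted p = 0.266). Fgf21, a fasting hormone of the liver, was at 1.88-fold and 1.13-fold (limma adjusted p = 0.333 and 0.859), and Ppargc1a, a coactivator of gluconeogenesis, at 1.40-fold and 1.27-fold (0.301 and 0.370).

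Genes that mark the male or female pattern of growth hormone secretion in rat liver were measured too. Of 8 male-biased genes 0 were called, with medians of -0.02 at 10 mg/kg and 0.01 at 30 mg/kg. Their mean level ranged from 13.61 to 13.88 in vehicle, where the highest value on any array was 15.38. Changes of genes this bright may be understated. The lowest mean level of the 15 samples was that of vehicle sample 1. Its value for Obp3, of this list, was 12.84 against 13.99 to 14.16 in the other vehicle samples. Values of this list without it are not given. Cyp2c13, a male-specific P450, was 1.15-fold and 1.09-fold higher in vehicle (limma adjusted p = 0.242 and 0.367), Hsd3b5, a steroid dehydrogenase, 1.20-fold and 1.13-fold (0.343 and 0.455) and Cyp3a2, a male-biased P450, 1.10-fold and 1.02-fold (0.471 and 0.891). Of 4 measured female-biased genes 0 were called, 3 had higher means at each dose, and the medians were 0.09 at 10 mg/kg and 0.19 at 30 mg/kg. By limma with no adjustment 2 of the 4 passed 0.05 at 10 mg/kg (13.3% of all genes) and 0 at 30 mg/kg (16.1%). At 10 mg/kg 2 of the 8 male-biased genes passed that limit with lower means. So did 3 of the 8 insulin and fasting responsive genes, with higher means. At 30 mg/kg 0 male-biased genes passed, and 2 insulin and fasting responsive genes did, with higher means. Of the 18 receptor signalling genes, 1 passed with a higher and 2 with lower means at 10 mg/kg, and 1 and 4 at 30 mg/kg. Of the 14 wider IGF and insulin signalling genes, 2 passed with higher and 2 with lower means at 10 mg/kg, and 3 and 2 at 30 mg/kg. Prlr, described above, is on the female-biased list too, with the largest difference at 10 mg/kg. Cyp2c12, a female-specific P450 named after its values were seen, was at 0.913-fold and 1.42-fold the vehicle level (limma adjusted p = 0.930 and 0.607). Cyp2c7 was at 1.12-fold and 1.05-fold the vehicle level (limma adjusted p = 0.209 and 0.559), while Cyp2a1 was at 1.01-fold and 0.874-fold (0.972 and 0.355). Such genes cross-react easily within the P450 families, so single probe sets of them are uncertain.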

How the data were processed

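Each of the 15 liver samples was hybridised to 1 Affymetrix rat array. Values were deposited on the log2 scale, 1 per probe set, already normalised by the authors. Per the submitters' processing notes the tools were RMA, GCRMA 2.12.1 and limma 2.14.7. Their roles are not stated there, so either RMA or GCRMA may have made the values. Such values hide shifts common to most genes and understate changes of dim ones. They may also understate changes of very bright ones. The number of arrays limits the precision.

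The filter required at least 5 of the 15 values of a probe set to exceed 6.10, the median of all values. The brightest kept probe set with 1 symbol stood for each of 9540 genes. All 15 member probe sets passed. Groups were fitted with limma 3.58.1 (R 4.3.3) on all 15 arrays, with Benjamini-Hochberg adjustment over all genes and a call at an adjusted p under 0.05. Probe sets that did not stand for a gene were tested in a fit of all 31042 probe sets. Fold changes are powers of 2 of log2 differences, with 95% confidence intervals. Exact permutation tests used all 252 divisions of 10 samples, with 0.00794 the smallest p possible. Correlations were permuted within groups 100000 times. The procedure was also run on simulated data (20 simulations). Those results are not given here, so the size of difference it could have called is not stated.

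Members and lists were chosen with earlier results of these data known. All members were named, with up to 3 genes per list by smallest p and the 3 genes most like Igf1, Igfbp1 and Socs2. Of cell type markers a few of these are printed, with counts for the rest. Names come from the platform annotation, updated through RefSeq (GRCr8). Alternatives were no filter, a stricter filter, the mean of probe sets, the 15929 filtered probe sets as features, quantile normalisation, median centring, trend and robust options, only the groups compared, the replicate number as a block and each sample left out.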

Additional observations from a re-analysis of the deposited data

Results flagged for a closer look

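Single samples stood apart from the other 4 of their group in 5 of 45 sets of values examined, where chance gives 2.25 on average. All 5 were in vehicle, and 4 of them were vehicle sample 1. Its Igfbp1 value was 6.50 against 8.13 to 8.68 in the others, and its Stat5b value 6.51 against 7.15 to 7.39. On the dimmer Igfbp3 probe set it had 8.13 against 9.08 to 9.19, and on the brighter Cish probe set 7.60 against 6.69 to 6.83. Stat5b and Igfbp1 have no other probe set. The other probe sets of Igfbp3 and Cish were not flagged. That of Igfbp3 was still lowest in this sample, with 8.79 against 9.84 to 10.27. That of Cish had 6.67 in this sample against 5.46 to 6.29. Vehicle sample 5 had an Igfals value of 11.31 against 11.87 to 11.99.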

How the results depend on the processing

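The count of called members stayed at 0 in every comparison under all alternatives run, including all 15 fits with 1 sample left out. With the replicate number as a block it was also 0, and adjusted p-values of members lay between 0.234 and 0.997 (limma). The replicate numbers showed no clear pairing of the samples: 3 of 15 same-number pairs correlated above 0.1, and 5 of 15 samples were closest to their own number. Their r ran from -0.071 to 0.19, and a check on so few pairs cannot exclude weak pairing. Calls over all genes at 10 mg/kg were 10, against 3 with no filter, 16 with the 15929 filtered probe sets as features, 0 with the replicate block and 0 to 26 with 1 sample left out. At 30 mg/kg they were 0, against 10 with the filtered probe sets as features and up to 5 with 1 left out. For the mean of both doses they were 14, against 25 with the filtered probe sets as features, 3 with the block and up to 85 without vehicle sample 5.

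Differences near 0 changed sign, and with 1 sample left out some larger ones did too. In the mean of both doses Igfbp1 went from 0.25 with all samples to -0.13 without vehicle sample 1. At 10 mg/kg Socs2 went from -0.19 to 0.11 without vehicle sample 3. The cause was not tested. For Igf1 the log2 difference was 0.012 at 30 mg/kg against vehicle with the mean of probe sets, and between the doses -0.011 with quantile normalisation and -0.00307 with median centring. For Stat5b in the mean of both doses it was 0.00845 with quantile normalisation. With 1 sample left out, differences at 10 mg/kg ran from -0.098 to 0.018 for Igf1, -0.16 to 0.0096 for Igfals, -0.13 to 0.012 for Igfbp2, -0.058 to 0.013 for Igfbp4 and -0.39 to 0.11 for Socs2. At 30 mg/kg they ran from -0.087 to 0.029 for Igf1, -0.16 to 0.22 for Igfbp3 and -0.087 to 0.13 for Stat5b. Between the doses they ran from -0.052 to 0.087 for Ghr, -0.0074 to 0.036 for Igf1 and -0.085 to 0.033 for Igfals. In the mean of both doses they ran from -0.092 to 0.023 for Igf1, -0.13 to 0.42 for Igfbp1, -0.042 to 0.10 for Igfbp2, -0.34 to 0.036 for Igfbp3, -0.14 to 0.37 for Socs2 and -0.17 to 0.053 for Stat5b. Cish and Ghr kept their sign against vehicle in every fit. Igfbp2 has no value under the stricter filter, which it did not pass. That the arrays number 5 a group limits what size of difference can be called.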
